A study of Mus musculus with 9 samples.

Results

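Mouse mammary epithelial cells carrying a MYC oncogene were compared with the same cells carrying a Her2 oncogene, within each of 3 sorted populations. The libraries were chosen by their titles: 3 labelled MYC and 3 labelled Her2, 1 for each oncogene and population, which is 6 of the 9 bulk RNA-seq libraries of the series. The other 3 are control libraries of the same populations, whose levels are given for orientation. All are from Comma-1D, a mouse mammary epithelial line that keeps several cell states side by side in culture. MYC libraries came from cells transduced with MYC and Her2 libraries from cells transduced with Her2, both called activated oncogenes in the labels, while control libraries carry the label control. All groups were grown in the same medium, which held fetal serum, mouse EGF, insulin and gentamicin, so every library comes from cells given an ERBB receptor ligand. The B population was sorted as Sca-1 high and EpCAM low, L as Sca-1 low and EpCAM high, and bi as high for both. The labels do not state the species of the transgenes or what vector the controls carried. They also do not state whether the libraries of a population came from separate cultures. With 1 library per group and population, p-values measure only the spread left after group and population are fitted. That spread mixes group differences that vary by population with noise between libraries, which may be technical, and these parts cannot be separated. A population and its culture or sort day cannot be told apart.

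MYC is a transcription factor that pairs with MAX, binds E-box DNA and is known for driving ribosome biogenesis, nucleotide and polyamine synthesis and cell cycle entry. Her2 is the protein product of Erbb2, a receptor tyrosine kinase of the EGF receptor family that has no ligand of its own, signals in pairs with its relatives and feeds the RAS-ERK and PI3K-AKT pathways. ERK activity is known to induce feedback inhibitors, PEA3-type ETS factors, AP-1 subunits and EGF family ligands, whereas AKT keeps FOXO factors out of the nucleus. Both genes are amplified in subsets of human breast cancers.

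Total estimated counts were 46.9 to 69.3 M in MYC libraries, 51.7 to 81.2 M in Her2 libraries and 54.0 to 98.9 M in control libraries. Reads of nuclear ribosomal RNA made up 10.3 to 14.7% of the total in MYC libraries, 9.70 to 16.1% in Her2 libraries and 12.5 to 13.1% in control libraries. Levels below are CPM (each library's counts over its TMM-scaled total) and are written in the order B, L, bi. The basal keratin genes Krt5 and Krt14 were above 560 CPM in each of the 9 libraries. The epithelial genes Epcam and Cdh1 were below 3 CPM in the 3 B libraries, so the B population has the basal keratins and Trp63 of mammary epithelium and nearly lacks these junction genes. Of the defining markers of other cell types, the macrophage gene Adgre1 had 1 read in all 9 libraries together, the adipocyte gene Adipoq 0 to 4 reads per library and the pan-leukocyte gene Ptprc 0.428 to 0.95 CPM. The summed level of 14 immune cell markers was 36.7, 6.45 and 14.5 CPM in MYC libraries and 25.0, 9.84 and 7.24 CPM in Her2 libraries, most of it from H2-Ab1 or Cd68. The endothelial gene Pecam1 was at 1.79, 2.49 and 5.31 CPM in MYC libraries and 2.23, 2.63 and 2.21 CPM in Her2 libraries. Summed, 10 endothelial markers were at 7.25, 7.815 and 11.3 CPM in MYC libraries and 8.93, 8.35 and 7.78 CPM in Her2 libraries. Among mesenchymal markers, Pdgfra was at 102, 14.4 and 28.9 CPM in MYC libraries and 52.2, 13.8 and 12.8 CPM in Her2 libraries, and Vim was at 204 to 449 CPM in MYC libraries and 425 to 466 CPM in Her2 libraries. Col1a1 was at 4.73, 1.90 and 4.46 CPM in MYC libraries and 2.37, 1.70 and 6.43 CPM in Her2 libraries. Its level in controls was 36.3, 1.98 and 11.8 CPM.

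The oncogenes' own genes came first, as a check of the labels. Myc (chr15:61985391-61990374, plus strand, GRCm38) was at 285, 207 and 188 CPM in MYC libraries, against 169, 96.6 and 68.2 CPM in Her2 libraries and 114, 83.3 and 92.6 CPM in controls. All 3 MYC libraries lay above all 3 Her2 libraries, and the difference was 2.13-fold (log2 fold change 1.09, SE 0.20, adjusted p = 0.0205 by edgeR's quasi-likelihood test). The call was lost without the L or the bi library of either oncogene (adjusted p 0.0568 to 0.0944). Erbb2 (chr11:98412470-98437716, plus strand, GRCm38) was at 56.7, 69.0 and 74.4 CPM in MYC libraries, against 189, 651 and 235 CPM in Her2 libraries and 53.3, 88.9 and 82.3 CPM in controls. MYC libraries sat near their controls and below every Her2 library, and Erbb2 was 4.73-fold lower in MYC (log2 fold change -2.24, SE 0.31, adjusted p = 0.00687). The L Her2 library held the most Erbb2 reads of the 9. Reads of a transgene of another species or of a cDNA without untranslated regions may map to these genes only in part, so the levels check the labels and do not measure transgene dose. Ly6a, which encodes the sort marker Sca-1, was at 112, 12.8 and 139 CPM in MYC libraries, 19.5, 2.37 and 15.9 CPM in Her2 libraries and 57.8, 6.53 and 18.4 CPM in controls. It was 6.70-fold higher in MYC (log2 fold change 2.74, SE 0.36, adjusted p = 0.00605), within gates that select cells on the protein it encodes. Epcam, the other sort marker, was at 0.183, 331 and 252 CPM in MYC libraries and 0.307, 609.6 and 288 CPM in Her2 libraries, a difference that did not pass (adjusted p = 0.408). In bulk libraries, fewer cells of a type and less RNA per cell cannot be told apart, and this holds for each gene below.

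**Figure D1:**
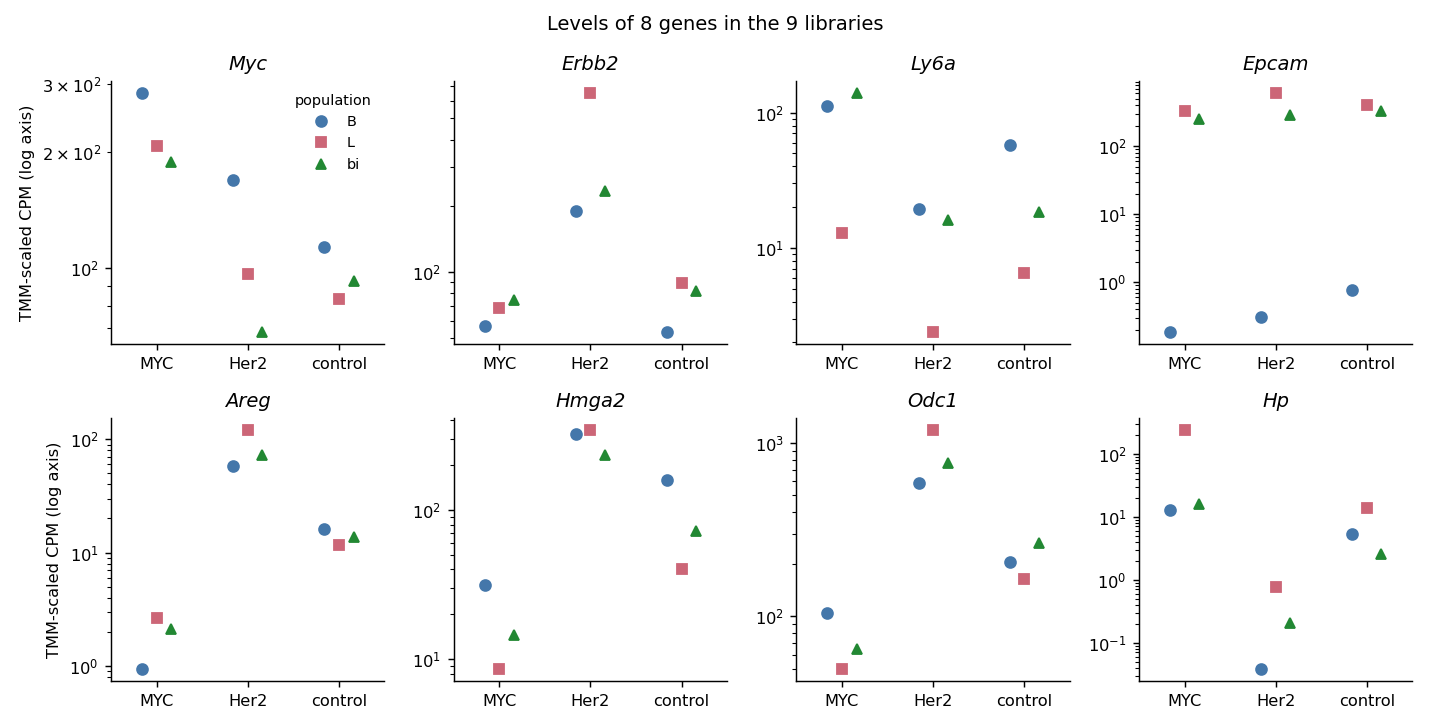
TMM-scaled CPM on a log axis of 8 genes, 1 panel each, in the MYC, Her2 and control libraries from left to right, with 1 point for each of the populations B, L and bi. For Erbb2 the 3 Her2 points, 189 to 651 CPM, lie above the 3 MYC points, 56.7 to 74.4 CPM.

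Across the genome, MYC cells differed from Her2 cells in opposite ways for several groups of genes: EGF family ligands, ERK-induced genes, DNA replication genes and the polyamine enzyme Odc1 were lower in MYC, and acute phase, interferon-linked and luminal progenitor genes were higher. Each gene was fitted with 1 common log2 fold change over the 3 populations, which is not the mean of the population ratios. For Wif1 the log2 ratios were 0.11, 4.67 and 4.22 in B, L and bi, and the fitted value was 4.19. In this fit, 1089 of 23834 genes tested (4.57%) passed an adjusted p of 0.05. Of these, 581 (2.44%) were higher and 508 (2.13%) lower in MYC, and 4562 (19.1%) had an unadjusted p under 0.05. On log2(TPM + 1) with limma the split was 138 higher and 362 lower, a share of higher calls of 27.6% against 53.4% in the count fit. All 3 MYC libraries lay above all 3 Her2 libraries for 1568 genes (6.58%) and below them for 1713 (7.19%). Among the called genes, 545 of 581 higher ones and 498 of 508 lower ones had the same sign in each population, and 204 and 210 of them changed at least 4-fold. The count depends on L and bi: it was 384 with the L MYC library left out, 278 with L Her2, 217 with bi MYC and 620 with bi Her2. Without population as a term of the fit, 6 genes passed. The L population showed the largest change for 242 of the higher calls and 331 of the lower ones, bi for 253 and 90, and B for 86 and 87. For B, L and bi in turn, the median log2 ratio of the higher calls was 1.07, 1.76 and 1.71, and that of the lower calls -1.18, -2.01 and -1.39.

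The ligands of the EGF receptor family were in part lower in MYC. Of 11 listed, 10 were tested, and 5 (50%) fell in MYC cells, where 2.13% of all genes did. None rose, and the median log2 fold change of the 10 was -1.50, against 0.02 over all genes tested. Areg encodes amphiregulin, the EGF receptor ligand that drives ductal growth in the mammary gland. Areg was at 0.937, 2.66 and 2.11 CPM in MYC libraries, 58.1, 122 and 72.8 CPM in Her2 libraries and 16.1, 11.6 and 13.7 CPM in controls. Every MYC library was below every control library, and every Her2 library was above them. Areg was 44.1-fold lower in MYC (log2 fold change -5.46, SE 0.38, adjusted p = 0.000288), and its log2 ratio was close to equal in B, L and bi at -5.91, -5.50 and -5.09. Ereg encodes epiregulin, a ligand of EGFR and ERBB4. It was at 28.5, 10.2 and 10.2 CPM in MYC libraries, 113, 144 and 119 CPM in Her2 libraries and 162, 46.5 and 60.8 CPM in controls, and fell 9.28-fold (adjusted p = 0.00486). In B the control exceeded both oncogenes. Hbegf, the heparin-binding ligand shed from the cell surface, was at 19.5, 11.5 and 12.9 CPM in MYC libraries, against 96.3, 266 and 56.3 CPM in Her2 libraries and 45.8, 31.3 and 22.5 CPM in controls. Its fall was 8.32-fold (adjusted p = 0.00871), with no overlap between the arms. Nrg1, a neuregulin that binds ERBB3 and ERBB4, was at 47.5, 20.1 and 38.1 CPM in MYC libraries and 113, 137 and 168 CPM in Her2 libraries, with 65.4, 88.7 and 108 CPM in controls. It fell 4.01-fold (adjusted p = 0.00897), a call lost without the bi MYC library (0.0552). Epgn, which encodes epigen, fell 4.33-fold (adjusted p = 0.0133), while Tgfa and Btc had log2 fold changes of -1.0 and -0.83 that did not pass. Without the bi MYC library 3 of the ligands passed.

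Of the receptors and their adaptors, Egfr and Gab1 moved the other way. Egfr, the receptor of Areg and Hbegf among other ligands, was at 278, 143 and 226 CPM in MYC libraries, 106, 73.7 and 115 CPM in Her2 libraries and 235, 144 and 157 CPM in controls. MYC libraries lay above Her2 libraries throughout, and near or above the controls. The difference was 2.15-fold (log2 fold change 1.10, SE 0.19, adjusted p = 0.0139). Gab1, a docking protein that links receptors to PI3K and SHP2, was at 42.1, 101 and 80.8 CPM in MYC libraries and 25.0, 28.1 and 28.1 CPM in Her2 libraries, 2.59-fold higher in MYC (adjusted p = 0.0101). Both calls were lost without the L Her2 or the bi MYC library, with adjusted p 0.0863 to 0.101 for Egfr and 0.05 to 0.0609 for Gab1. Erbb3, the kinase-impaired partner of Her2, had a log2 fold change of 0.00 and did not pass. Errfi1, a feedback inhibitor of the receptors, had -1.10 (adjusted p = 0.22).

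Genes that ERK signalling induces were lower in MYC cells. Of 27 tested members, 13 (48.1%) fell, against 2.13% of all genes, and none rose, with a median log2 fold change of -1.13. The median ratio was negative in each population, with B at -0.80, L at -1.74 and bi at -1.05. Hmga2, an architectural chromatin protein of embryonic and tumour cells, was at 31.3, 8.60 and 14.5 CPM in MYC libraries, against 325, 347 and 234 CPM in Her2 libraries and 159.8, 40.1 and 72.0 CPM in controls. MYC libraries were below their controls and Her2 libraries above them in each population. Hmga2 fell 20.0-fold (log2 fold change -4.32, SE 0.40, adjusted p = 0.00202). Spry4, a feedback inhibitor of receptor tyrosine kinases, was at 0.571, 0.266 and 0.118 CPM in MYC libraries and 2.89, 7.75 and 1.64 CPM in Her2 libraries, 13.4-fold lower (adjusted p = 0.0074). Il11, a cytokine of the interleukin 6 family, was at 0.640, 0.368 and 0.453 CPM in MYC libraries and 4.43, 10.8 and 2.69 CPM in Her2 libraries, 11.4-fold lower (adjusted p = 0.00836). The PEA3-type ETS factors Etv5 and Etv4 fell 3.46-fold (adjusted p = 0.00605) and 2.69-fold (adjusted p = 0.0136). The ERK phosphatase gene Dusp5 fell 5.79-fold (adjusted p = 0.0276), and the urokinase receptor gene Plaur 7.73-fold (adjusted p = 0.00605). Fosl1, the only member of 11 AP-1 subunit genes to pass, was at 27.2, 5.05 and 10.0 CPM in MYC libraries and 71.4, 83.9 and 33.9 CPM in Her2 libraries. Its 5.46-fold fall (adjusted p = 0.0205) was lost without the L MYC or the bi MYC library (0.0572 to 0.0649).

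Some ERK-linked genes did not follow. Dusp6, the cytoplasmic ERK phosphatase, was at 140.3, 78.9 and 64.1 CPM in MYC libraries and 129.8, 264 and 143 CPM in Her2 libraries. The order turned in B, and the difference did not pass (adjusted p = 0.134). Egr1, an immediate early zinc finger factor, was at 609, 368 and 366 CPM in MYC libraries, 339.6, 379 and 125 CPM in Her2 libraries and 364, 215 and 112 CPM in controls (log2 fold change 0.79, adjusted p = 0.163). The number of ERK list members called lower was 8 without the L MYC or without the L Her2 library and 7 without bi MYC.

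All 48 DNA replication and G1/S genes tested had a lower level in MYC than in Her2 within each of the 3 populations. Of these, 30 (62.5%) passed, against 2.13% of all genes called lower. None passed in the other direction. Their median log2 fold change was -1.01, and all 3 MYC libraries were below all 3 Her2 libraries for 41 of the 48, where the share over all genes was 7.19%. The summed level of the 48 genes was 1433, 1912 and 1728 CPM in MYC libraries, 2816, 3558 and 3724 CPM in Her2 libraries and 2301, 4171 and 4957 CPM in controls. MYC libraries were below the control of their population for 45, 48 and 47 of the genes in B, L and bi. Her2 libraries were above it for 39, 6 and 2, so that in L and bi both oncogenes had lower levels than the control for most of these genes. E2f8, a repressor of the E2F family that is itself an E2F target, was at 15.6, 24.0 and 23.1 CPM in MYC libraries, 49.8, 80.4 and 108 CPM in Her2 libraries and 39.2, 73.5 and 90.9 CPM in controls. It fell 3.67-fold (log2 fold change -1.88, SE 0.18, adjusted p = 0.00225). Cdc6, which loads the MCM helicase onto replication origins, was at 6.47, 14.1 and 9.54 CPM in MYC libraries, 24.3, 30.3 and 36.5 CPM in Her2 libraries and 19.6, 37.4 and 45.7 CPM in controls. Its fall was 3.12-fold (adjusted p = 0.00736). E2f1, the activating E2F at the G1/S transition, was at 8.50, 16 and 12.3 CPM in MYC libraries and 32.9, 34.5 and 27.7 CPM in Her2 libraries, and its 2.69-fold fall (adjusted p = 0.0152) was lost without the B MYC or the bi MYC library (0.0511 to 0.0691). The count of 30 is sensitive to single libraries: 18 passed without B Her2, 13 when either L oncogene library was left out, 3 when bi MYC was and 15 when bi Her2 was.

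Mitotic genes were mostly lower in MYC in the L and bi pairs and mostly not in the B pair, a difference between populations that was not tested. Of 52 G2/M genes, 4 (7.69%) fell, against 2.13% of all genes, and none rose, with a median log2 fold change of -0.49. Positive ratios were found for 33 of the 52 in the B pair, against 2 in the L pair and 1 in the bi pair, with medians of 0.16, -0.82 and -0.73. The 4 called were Anln, which encodes the contractile ring protein anillin, at -1.16 (adjusted p = 0.0335), Ect2, an exchange factor for RhoA at cytokinesis, at -0.96 (adjusted p = 0.0277), Plk4, the kinase of centriole duplication, at -0.80 (adjusted p = 0.0362), and the spindle checkpoint kinase gene Ttk. None of the 4 was called without the L or the bi library of either oncogene, while 7 passed without B MYC, 13 without B Her2, 2 without L control and 41 without population B. The summed G2/M level was 2398, 3444 and 3360.5 CPM in MYC libraries, 2234, 6286 and 5469.5 CPM in Her2 libraries and 3752, 6583 and 7159 CPM in controls.

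**Figure D2:**
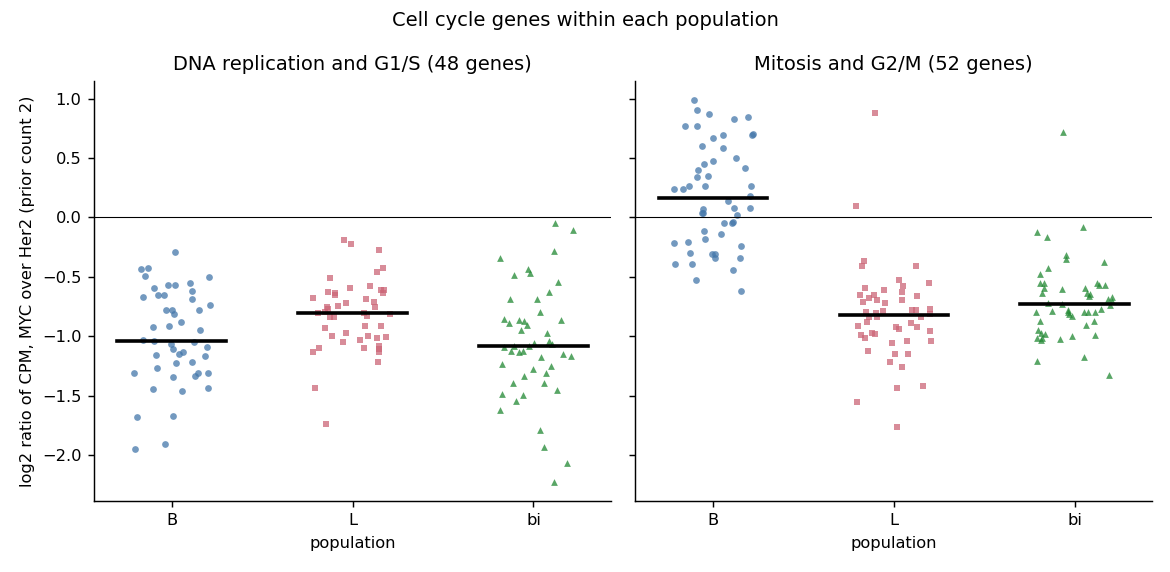
Log2 ratio of CPM in the MYC library over the Her2 library of the same population (y axis, prior count 2) for each gene of the 2 cell cycle lists, by population (x axis), with 1 point a gene. All 48 DNA replication and G1/S genes are below 0 in B, L and bi, while 33 of the 52 G2/M genes are above 0 in B and 2 and 1 are in L and bi.

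Cyclin and inhibitor genes also differed. Ccnd1 encodes cyclin D1, the ERK-induced partner of CDK4 that Her2 needs for mammary tumours in mice. It was at 219.6, 424 and 416 CPM in MYC libraries, 626, 1660.0 and 802 CPM in Her2 libraries and 407, 782 and 777 CPM in controls, and fell 2.82-fold (log2 fold change -1.50, SE 0.23, adjusted p = 0.01). Cdkn1a encodes the CDK inhibitor p21, a p53 target that MYC is known to repress. Its level was 3.77, 10.2 and 26.1 CPM in MYC libraries, 32.8, 173 and 68.6 CPM in Her2 libraries and 8.75, 27.3 and 24.1 CPM in controls. Each Her2 library lay above its control and above all MYC libraries, and Cdkn1a fell 7.18-fold (adjusted p = 0.00995). Of 23 p53 targets, Cdkn1a and Pmaip1 were the 2 (8.70%) that passed, both lower, against 2.13% of all genes. Without B control 4 were lower. Pmaip1, a BH3-only protein, was lost without any L or bi oncogene library (adjusted p 0.062 to 0.127). Cdkn1b, which encodes p27 and is induced by FOXO factors, was at 90.8, 148 and 114 CPM in MYC libraries and 57.3, 75.2 and 68.2 CPM in Her2 libraries. It rose 1.73-fold (adjusted p = 0.0394), lost on leaving out any of 7 libraries (adjusted p 0.0599 to 0.226): all those of L and bi, and B MYC.

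Genes linked to FOXO factors and to restraint of PI3K were in part higher in MYC. Of 24, 5 (20.8%) rose, against 2.44% of all genes, and 1 (4.17%) fell, against 2.13%. The median ratio was 0.38 in B and 0.57 in bi but -0.076 in L, where 13 of the 24 ratios were negative. Bmf, a pro-apoptotic BH3-only protein, was at 6.03, 35.2 and 18.1 CPM in MYC libraries, 2.15, 4.60 and 2.34 CPM in Her2 libraries and 1.63, 7.15 and 3 CPM in controls. MYC libraries were above both other arms in each population, and Bmf rose 5.55-fold (log2 fold change 2.47, SE 0.31, adjusted p = 0.00595). Sesn3, a sestrin that dampens mTORC1, was at 173, 186 and 193 CPM in MYC libraries and 72.3, 50.9 and 62.0 CPM in Her2 libraries, with 149, 117 and 87.4 CPM in controls. It rose 3.02-fold (adjusted p = 0.00605). Pik3ip1, a membrane inhibitor of PI3K, rose 3.30-fold (adjusted p = 0.00812), a call lost without bi MYC (0.055). Klf2, a zinc finger factor known as a FOXO target in mouse T cells, fell 5.46-fold (adjusted p = 0.0198), lost without L MYC, L Her2 or bi MYC (0.0557 to 0.0986). The 5 that rose became 3 without L Her2 and 2 without bi MYC.

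In the lists of genes known as MYC targets, none was called higher in MYC in edgeR's quasi-likelihood test. The first 2 lists had negative medians, while that of the cytosolic ribosomal proteins, described next, was positive. Of 40 nucleolar ribosome biogenesis genes, 0 passed in edgeR's quasi-likelihood test in either direction, and 36 had a negative log2 fold change, with a median of -0.34. At an unadjusted p under 0.05, 11 of them were lower and 0 higher, while DESeq2 called 1, limma-voom 1 and limma on log2(TPM + 1) 2, all lower. Without the B control library 5 of them passed, all lower. The smallest p in that list was that of Grwd1, a WD-repeat ribosome assembly factor, at -0.72 (adjusted p = 0.0561). Of 41 metabolic and growth targets, 4 (9.76%) fell, against 2.13% of all genes, and none rose. Odc1 encodes ornithine decarboxylase, the rate-limiting enzyme of polyamine synthesis and a textbook MYC target. Odc1 was at 105, 49.7 and 64.6 CPM in MYC libraries, 589, 1191 and 765 CPM in Her2 libraries and 207, 164 and 266 CPM in controls. Its levels ordered as MYC, control, Her2 in each population, and it fell 11.9-fold (log2 fold change -3.57, SE 0.39, adjusted p = 0.00381). Tfrc, the transferrin receptor, fell 1.95-fold (adjusted p = 0.0157), lost without L MYC, L Her2 or bi MYC (0.0599 to 0.105). Nme1, a nucleoside diphosphate kinase, was at 56.1, 41.8 and 48.3 CPM in MYC libraries, 89.9, 99.6 and 104 CPM in Her2 libraries and 70.0, 101 and 136 CPM in controls. Its 1.99-fold fall (adjusted p = 0.0388) was lost on leaving out any of 6 libraries (0.0545 to 0.192): all those of L, B Her2, bi MYC and bi Her2. The fourth was Cdc25a, the phosphatase that activates CDK2. The 4 called became 7 without B control, 1 without L MYC, L Her2 or bi MYC and 2 without L control or bi Her2.

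The cytosolic ribosomal protein genes, also known as MYC targets, leaned the other way. Their median log2 fold change was 0.35 and 42 of 44 were positive, with 0 passing in edgeR's quasi-likelihood test. At an unadjusted p under 0.05, 4 were higher and 0 lower, and DESeq2 called 0, limma-voom 1, higher, and limma on log2(TPM + 1) 0. The smallest p was that of Rpl5, at 0.66 (adjusted p = 0.0539). Of the 44 ratios, 43 were positive in the B pair, 15 in the L pair and 44 in the bi pair. Many of these genes have processed pseudogenes of near-identical sequence, between which estimated counts can be split. In the network of MYC itself, Mxd4 rose beside Myc. Mxd4 encodes a MAX partner that represses E-box genes and is usually high in resting or differentiating cells. It was at 137, 66.2 and 87.3 CPM in MYC libraries, 51.2, 11.3 and 13.7 CPM in Her2 libraries and 58.6, 23.6 and 19 CPM in controls. It stood 4.65-fold higher in MYC (log2 fold change 2.22, SE 0.27, adjusted p = 0.00513), and Max, Mnt and Mga did not pass.

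Promoter sequence was read for the motifs of the factors these groups are known for, CACGTG for MYC with MAX and TGANTCA for AP-1, both on both strands and sharing no position. RefSeq promoters of GRCm38.p6 were found for 13781 of 23811 gene symbols tested, and the window was the 250 bases before each annotated start. CACGTG stood in 8.21% of 548 promoters of genes higher in MYC (95% exact interval 6.05 to 10.8), in 5.96% of 487 promoters of genes lower in MYC (4.02 to 8.44) and in 7.28% of all 17355. TGANTCA stood in 6.20% of the promoters of higher genes (4.34 to 8.56), in 10.3% of those of lower genes (7.72 to 13.3) and in 5.64% of all. Alternative starts of a gene give overlapping windows, so the promoters are not independent and the intervals cover counting error only. The promoters below are a selection of those that hold a motif, the motif in capitals: 3 genes that fell and hold TGANTCA, then Mxd4, which rose, and Nme1, which fell, with CACGTG. Nme1 holds both motifs.
Mmp10 (chr9:7502092-7502341, plus strand): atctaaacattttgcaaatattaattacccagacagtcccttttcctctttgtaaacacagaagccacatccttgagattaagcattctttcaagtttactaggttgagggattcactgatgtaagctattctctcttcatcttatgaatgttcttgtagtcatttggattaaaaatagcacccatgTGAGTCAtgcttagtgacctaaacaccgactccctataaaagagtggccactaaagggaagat
Il11 (chr7:4778142-4778391, minus strand): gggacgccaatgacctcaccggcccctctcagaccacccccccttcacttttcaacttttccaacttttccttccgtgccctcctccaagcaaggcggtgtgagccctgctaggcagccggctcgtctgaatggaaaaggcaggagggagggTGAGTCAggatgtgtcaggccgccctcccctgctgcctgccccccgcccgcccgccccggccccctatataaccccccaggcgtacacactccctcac
Serpinb2 (chr1:107511173-107511422, plus strand): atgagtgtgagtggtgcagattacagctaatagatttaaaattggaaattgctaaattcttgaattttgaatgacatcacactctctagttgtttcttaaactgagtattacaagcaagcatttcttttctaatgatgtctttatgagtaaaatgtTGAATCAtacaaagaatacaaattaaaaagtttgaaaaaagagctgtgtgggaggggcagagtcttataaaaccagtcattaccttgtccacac
Mxd4 (chr5:34187711-34187960, minus strand): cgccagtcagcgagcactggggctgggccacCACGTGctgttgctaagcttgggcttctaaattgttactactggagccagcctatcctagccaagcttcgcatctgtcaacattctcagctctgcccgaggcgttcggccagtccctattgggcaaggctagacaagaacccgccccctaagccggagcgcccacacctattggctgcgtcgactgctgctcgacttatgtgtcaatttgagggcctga
Nme1 (chr11:93968273-93968522, minus strand): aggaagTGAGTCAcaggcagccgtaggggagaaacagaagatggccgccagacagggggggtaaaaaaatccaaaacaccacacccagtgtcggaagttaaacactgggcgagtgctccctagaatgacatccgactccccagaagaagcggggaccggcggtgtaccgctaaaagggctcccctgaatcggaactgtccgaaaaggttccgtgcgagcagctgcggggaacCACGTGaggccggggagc
TGANTCA begins 63 bases before the start in Mmp10, 98 in Il11, 94 in Serpinb2 and 244 in Nme1. CACGTG begins 219 bases before the start in Mxd4 and 18 in Nme1. Other genes named by the rule also hold a motif. TGANTCA stands in Csn1s1, Ifit3b and Wnt5b, which rose, and in Dhcr7, which did not pass. CACGTG stands in Anln, which fell, in Oxtr, Wif1, Pigr, Tjp3 and Tgfb2, which rose, and in another window of Dhcr7. The windows of Areg, Wnt7a, Hmga2 and Odc1 hold neither string of letters.

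Leaving out pseudogenes, clones and predicted genes, Wnt7a fell furthest among called genes with the same sign in each population and a mean of 5 CPM or more in the higher arm. Wnt7a, a Wnt ligand, was at 0.137, 0.241 and 0.690 CPM in MYC libraries, 18, 63.6 and 20.1 CPM in Her2 libraries and 0.817, 1.59 and 5.44 CPM in controls. MYC libraries were at the low end and Her2 libraries well above the controls in every population, a 115-fold difference (log2 fold change -6.85, SE 0.71, adjusted p = 0.00328). Mmp10, the matrix metalloproteinase stromelysin-2 whose promoter is given above, was at 0.229, 0.114 and 0.0788 CPM in MYC libraries, 1.13, 15.4 and 22 CPM in Her2 libraries and 6.77, 0.455 and 1.96 CPM in controls. In B the control exceeded both oncogenes. Its fall (log2 fold change -6.76, SE 1.35, adjusted p = 0.0252) was lost without B MYC or without any L or bi oncogene library (0.0524 to 0.154). Ptgs2, the inducible cyclooxygenase COX-2, was at 114, 30.1 and 47.4 CPM in MYC libraries, 669, 806 and 465 CPM in Her2 libraries and 451, 95.6 and 181 CPM in controls. It fell 12.5-fold (log2 fold change -3.64, SE 0.45, adjusted p = 0.00563), ordered MYC, control, Her2 in each population. Nppb, the natriuretic peptide BNP, fell 30.3-fold (adjusted p = 0.00621). Fer1l6, a ferlin, fell 26.0-fold (adjusted p = 0.0118), and Ptpn22, a tyrosine phosphatase best known in lymphocytes, 13.8-fold (adjusted p = 0.00621). Serpinb2, a plasminogen activator inhibitor, fell 14.1-fold (adjusted p = 0.0378), lost without B control, L MYC or bi MYC (0.0558 to 0.117). Sema7a, a membrane-anchored semaphorin, had -6.16 (adjusted p = 0.0276), lost without B MYC or any L or bi oncogene library (0.0592 to 0.146).

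**Figure D3:**
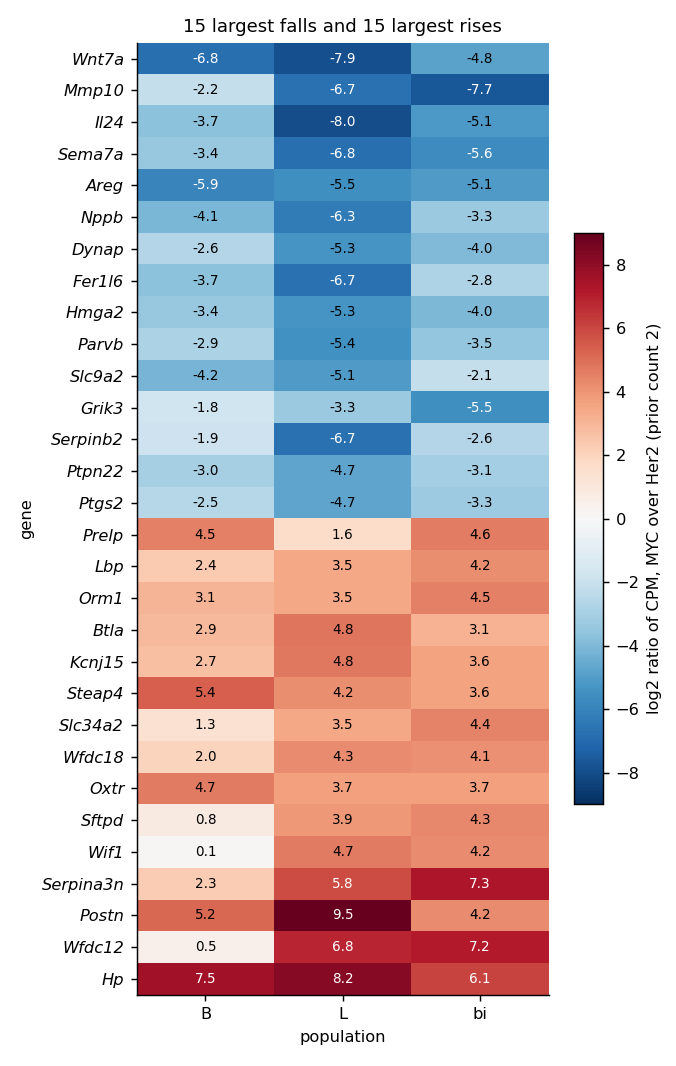
Heat map of the log2 ratio of CPM, MYC over Her2 (colour, prior count 2), in B, L and bi (columns) for the 15 genes with the largest falls and the 15 with the largest rises (rows), predicted genes, clones and pseudogenes left out. Wnt7a is at -6.76, -7.88 and -4.80 in B, L and bi and Hp at 7.54, 8.22 and 6.09, whereas Wif1 is at 0.11 in B and 4.67 and 4.22 in L and bi.

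Cytokines and receptors of the interleukin 1 and 6 families moved in both directions, with 6 of 23 (26.1%) higher and 8 (34.8%) lower in MYC. Over all genes, 2.44% were higher and 2.13% lower. Most of those that fell were ligands. Csf2 encodes GM-CSF and had 2 reads in the 3 MYC libraries together and 563 in the 3 Her2 libraries, a ratio of Her2 over MYC of 235 with a counting interval of 64.7 to 1944 (adjusted p = 0.00513). The Csf2 call was lost without population L (0.0702). Csf3, which encodes G-CSF, was at 0.823, 56.4 and 13.0 CPM in MYC libraries, 19.1, 463 and 61.1 CPM in Her2 libraries and 2.79, 133 and 41.2 CPM in controls. Within each population the order was MYC, control, Her2, and Csf3 fell 9.67-fold (adjusted p = 0.00595). Il1a, an epithelial alarmin, was at 28.0, 203 and 62.4 CPM in MYC libraries, 145, 1037 and 374 CPM in Her2 libraries and 63.1, 271 and 154 CPM in controls. The ratio was near equal in the 3 populations, and the fall was 5.39-fold (log2 fold change -2.43, SE 0.21, adjusted p = 0.00161). The genes that rose held 3 receptors: Lifr 3.69-fold (adjusted p = 0.0276), Osmr, which binds oncostatin M, 2.85-fold (adjusted p = 0.00339), and Il1r1 3.03-fold (adjusted p = 0.023). The antagonist Il1rn rose 2.60-fold (adjusted p = 0.0101). The 6 higher calls became 3 without B MYC, 1 without L Her2, 2 without bi MYC and 2 without bi Her2, and the 8 lower ones 5 without L MYC, L Her2 or bi MYC. Lifr was lost without B Her2 or any L or bi oncogene library (0.0549 to 0.182), and Il1r1 without B MYC, L Her2, bi MYC or bi Her2 (0.0654 to 0.125). Il24, an interleukin 10 family cytokine, was at 0, 0.330 and 0.375 CPM in MYC libraries, 0.345, 92.4 and 14.2 CPM in Her2 libraries and 0.231, 3.41 and 1.76 CPM in controls (adjusted p = 0.00605).

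Acute phase and innate defence genes were higher in MYC: 12 of 20 (60%) rose, where 2.44% of all genes did, with a median log2 fold change of 2.89. Hp encodes haptoglobin, a secreted haemoglobin-binding protein. It was at 12.6, 240.3 and 16 CPM in MYC libraries, 0.0383, 0.777 and 0.206 CPM in Her2 libraries and 5.38, 13.6 and 2.52 CPM in controls. MYC libraries were above their controls and Her2 libraries below them in each population, and Hp had the largest rise under the same limits, predicted genes left out (log2 fold change 7.40, SE 0.68, adjusted p = 0.00191). In B it rested on 552 reads in MYC and 2 in Her2, a ratio of 329 with a counting interval of 90.7 to 2725. Orm1, an orosomucoid, was at 22.7, 10.5 and 11.6 CPM in MYC libraries, 2.70, 0.923 and 0.470 CPM in Her2 libraries and 6.61, 4.75 and 1.92 CPM in controls, 13.2-fold higher (adjusted p = 0.0029). Complement component C3 was at 1072, 1033 and 727 CPM in MYC libraries, against 240.4, 519.8 and 285 CPM in Her2 libraries and 649.9, 659 and 443 CPM in controls. It rose 2.78-fold (adjusted p = 0.0129). Saa3, a serum amyloid A, rose 8.25-fold (adjusted p = 0.00225), and Lcn2, an iron-scavenging lipocalin, 3.75-fold (adjusted p = 0.0397). Saa1 and Saa2, and Orm1 and Orm2, are near-identical pairs whose counts may be split uncertainly. S100a8, S100a9 and Slpi, which encode neutrophil-type antimicrobial proteins also made by epithelia, had log2 fold changes of -0.48, -0.60 and -0.04 that did not pass. Without L MYC, L Her2 or bi MYC 4 members passed, and without bi Her2 5.

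Interferon-linked genes were higher in MYC, most of all in L. Of 34 tested, 11 (32.4%) rose, against 2.44% of all genes, and none fell. A positive log2 fold change was found for 32, and the median of the 34 was 1.47. By population the median ratio was 0.45 for B, 2.24 for L and 1.06 for bi. Mx2, an antiviral GTPase, was at 0.892, 5.56 and 0.966 CPM in MYC libraries, 0.383, 0.235 and 0.0916 CPM in Her2 libraries and 0.479, 0.338 and 0.128 CPM in controls (log2 fold change 3.24, SE 0.63, adjusted p = 0.024). The high value was that of the L MYC library. Ifit1, an antiviral RNA-binding protein, was at 1.94, 17.5 and 3.73 CPM in MYC libraries, 0.728, 1.20 and 0.676 CPM in Her2 libraries and 3.29, 3.20 and 1.56 CPM in controls (log2 fold change 2.78, SE 0.55, adjusted p = 0.0246). In B the control exceeded MYC. The list rests on L and bi: 0 members passed without L MYC or without L Her2, and 1 without bi MYC or without bi Her2. Of 14 immune cell markers 7 were tested, and H2-Ab1, an MHC class II gene, was called higher in MYC (log2 fold change 1.75, adjusted p = 0.0246), a call lost without any L or bi oncogene library (0.0511 to 0.0897). The summed level of the 14, given above, was higher in MYC than in Her2 in B and bi and lower in L, while Ptprc was below 1 CPM and Adgre1 at 0 or 1 read in each library. The part of immune cells in the interferon result was not tested. Of 16 genes of MHC class I presentation, 4 (25%) rose, against 2.44% of all genes. The transporter gene Tap1 rose 3.57-fold (adjusted p = 0.0102). The immunoproteasome genes Psmb8 and Psmb9 rose 3.71-fold (adjusted p = 0.00764) and 5.56-fold (adjusted p = 0.0192), and Tap2 was the fourth. None of the 4 was called without bi MYC, and 2 without L Her2.

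**Figure D4:**
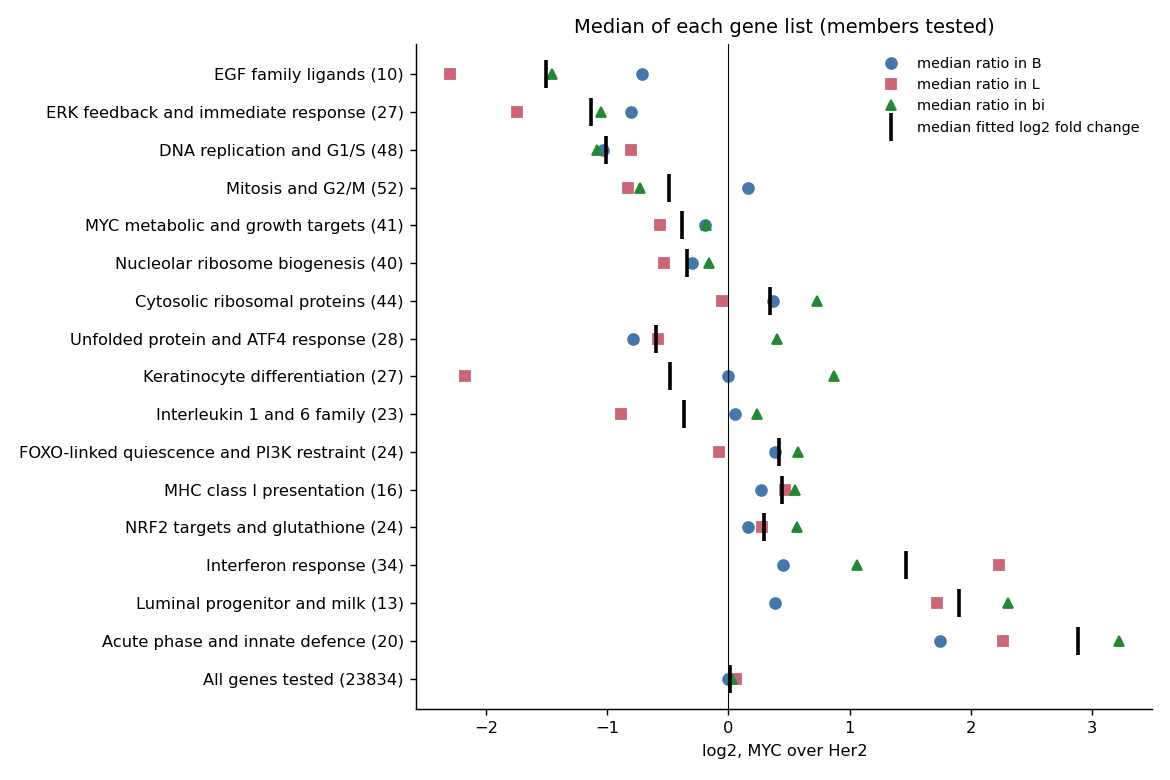
Median log2 of MYC over Her2 for the gene lists named on the y axis, with the number of members tested in parentheses. Symbols mark the median ratio in B, L and bi and the black bar the median of the fitted log2 fold changes; DNA replication and G1/S lies near -1 in all 3 populations, whereas the interferon list is at 0.45 in B and 2.24 in L.

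Luminal progenitor and milk genes were in part higher in MYC. Of 20 listed, 13 passed the filter on low counts. Of those, 7 (53.8%) rose, against 2.44% of all genes, and none fell. The milk genes Csn2, Wap, Lalba, Glycam1 and Csn1s2a were among the 7 that were not tested. The median log2 fold change of the 13 tested was 1.91. Kit, the receptor of stem cell factor and a luminal progenitor marker, had 0 reads in the 3 B libraries. It was at 26.1 and 2.33 CPM in L and bi of MYC, 0.0733 and 0.0229 CPM in L and bi of Her2 and 0.897 and 0.139 CPM in L and bi of controls. Both MYC values were above their controls and both Her2 values below (log2 fold change 7.78, SE 0.59, adjusted p = 0.00225). Ehf, an epithelial ETS factor, was at 8.89, 629 and 378 CPM in MYC libraries, 1.80, 124 and 76.3 CPM in Her2 libraries and 6.04, 349 and 197 CPM in controls. Its rise was near equal in B, L and bi, 4.98-fold in all (log2 fold change 2.32, SE 0.17, adjusted p = 0.000402). Elf5, the ETS factor of alveolar differentiation, rose 5.57-fold (adjusted p = 0.0324), and the casein gene Csn1s1 had 5.68 (adjusted p = 0.0074), lost without L MYC or L Her2 (0.0604 to 0.122). The 7 that rose became 3 without L MYC or bi MYC, 2 without L Her2, 4 without bi Her2 and 1 without population L. Of 11 simple luminal keratin and claudin genes listed, 10 were tested and 0 passed. The summed level of the 11 was 140, 873 and 513 CPM in MYC libraries and 164, 1995 and 323 CPM in Her2 libraries.

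Basal and stromal genes gave a mixed picture, with 2 of 25 basal genes (8%) higher, Oxtr and Egfr, and 2 (8%) lower, among them Nrg1. Over all genes, 2.44% were higher and 2.13% lower. Without B Her2 the count was 3 higher and 5 lower, and without bi MYC 1 higher and 0 lower. Oxtr, the oxytocin receptor of myoepithelial cells, was at 15.7, 5.41 and 18.1 CPM in MYC libraries, 0.575, 0.396 and 1.36 CPM in Her2 libraries and 14.4, 2.12 and 3.66 CPM in controls. It rose 15.7-fold (log2 fold change 3.97, SE 0.53, adjusted p = 0.00634), with no overlap between the arms. Krt5, Krt14 and Trp63 did not pass. Postn, which encodes the matrix protein periostin, was at 312, 393 and 261 CPM in MYC libraries, 8.57, 0.528 and 13.8 CPM in Her2 libraries and 1277, 23.5 and 50.4 CPM in controls. In B the control was above both oncogenes. The difference (log2 fold change 6.33, SE 1.46, adjusted p = 0.0415) was lost without B Her2, L Her2 or bi MYC (0.0787 to 0.178). Cdh2, N-cadherin, was at 10.7, 7.68 and 10.1 CPM in MYC libraries, 36.8, 96.7 and 36.7 CPM in Her2 libraries and 43.7, 25.6 and 53.3 CPM in controls. It fell 5.85-fold (adjusted p = 0.0151), lost without L MYC or bi MYC (0.0591 to 0.0659). The summed level of 20 fibroblast and matrix genes was 4457, 584 and 1018 CPM in MYC libraries and 2290, 580.4 and 1106 CPM in Her2 libraries, and its part in the result for Postn was not tested. The chemokine gene Cxcl12 was at 251, 2.26 and 21.9 CPM in MYC libraries and 39.0, 0.704 and 5.89 CPM in Her2 libraries, 4.46-fold higher within populations (adjusted p = 0.00641).

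Of 15 Notch pathway genes, 2 (13.3%) rose and 1 (6.67%) fell, against 2.44% and 2.13% of all genes. Notch1 rose 3.06-fold (adjusted p = 0.0129) and its target Hey1 rose by 2.30 on the log2 scale (adjusted p = 0.016). The ligand gene Dll4 fell by 3.68 (adjusted p = 0.0189). Notch1 was lost without bi MYC or bi Her2 (0.0517 to 0.0686), Hey1 without any L or bi oncogene library (0.0533 to 0.0947) and Dll4 without L MYC, L Her2 or bi MYC (0.0893 to 0.21). Of 27 Wnt genes, 3 (11.1%) rose, against 2.44% of all genes, and 1 (3.70%), Wnt7a, fell, against 2.13%. None of the 3 that rose was called without L Her2 or bi MYC, and 1 was without bi Her2. Wif1, a secreted Wnt antagonist, was at 0.0229, 11.2 and 38.0 CPM in MYC libraries and 0.0192, 0.410 and 2.00 CPM in Her2 libraries. It stood 18.3-fold higher (adjusted p = 0.0105), lost without L Her2 or bi MYC (0.0723 to 0.117).

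Of 24 NRF2 and glutathione genes, 4 (16.7%) rose, against 2.44% of all genes. Mgst1, a microsomal glutathione transferase, was at 173, 148 and 117 CPM in MYC libraries, 62.0, 34.0 and 31.6 CPM in Her2 libraries and 84.1, 87.0 and 53.4 CPM in controls, 3.52-fold higher (adjusted p = 0.00397). Gstm1 rose 3.46-fold (adjusted p = 0.00407), with near-identical relatives in its cluster, and the NRF2 reporters Nqo1 and Hmox1 did not pass. Of 33 glycolysis and hypoxia genes, Aldoc, an aldolase, rose 3.30-fold (adjusted p = 0.00677) and Car12, a carbonic anhydrase, 1.72 on the log2 scale (adjusted p = 0.0149). Vegfa fell by 1.11 on the log2 scale (adjusted p = 0.0285). These 2 higher calls and 1 lower call were 6.06% and 3.03% of the 33, near the 2.44% and 2.13% over all genes. Car12 was lost without L Her2, bi MYC or bi Her2 (0.0502 to 0.0968) and Vegfa without B MYC, L MYC or L Her2 (0.0835 to 0.113). Of 28 unfolded protein and ATF4 genes, 4 (14.3%) fell, against 2.13% of all genes. All 4 were chaperone-linked genes of the endoplasmic reticulum. Hyou1 fell 1.99-fold (adjusted p = 0.0168) and Hspa5, the chaperone BiP, 1.91-fold (adjusted p = 0.0341). Manf fell 2.15-fold (adjusted p = 0.0231), and Creld2 was the fourth. None of the 4 passed without L MYC, L Her2 or bi MYC, while 7 passed without B Her2 and 2 without L control, bi control or bi Her2. The median ratio of the 28 was -0.79 in B and -0.58 in L but 0.40 in bi, where 17 ratios were positive. The 0 of 25 cholesterol synthesis genes called in edgeR's test had ratios positive for 24 in the B pair, 6 in the L pair and 6 in the bi pair. At an unadjusted p under 0.05, 2 were higher and 2 lower, and DESeq2 called 1, lower, while limma-voom and limma on log2(TPM + 1) called 0.

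Within single populations, where 1 library stands against 1 and no test is possible, genes at 10 CPM or more that differed at least 2-fold numbered 362 higher (3.82%) and 287 lower (3.03%) in B MYC against B Her2. In L they were 486 higher (5.02%) and 978 lower (10.1%), and in bi 742 higher (7.75%) and 345 lower (3.61%). The genes at the extremes differed in part by population, with Hp among the rises and Wnt7a among the falls in each of B, L and bi. In B, the largest rises were Hp, Postn, Oxtr, Col12a1, a fibril-associated collagen, and Fam189a2, and the largest falls Wnt7a, Areg, Trib3, Csf3 and Alcam. Trib3, a pseudokinase of the ATF4 response, was at 4.05, 23.3 and 32.4 CPM in MYC libraries, 108, 71.7 and 15.5 CPM in Her2 libraries and 4.03, 20.0 and 13.8 CPM in controls. Its ratio turned sign in bi, and it did not pass over the populations (adjusted p = 0.275). In L, the largest rises were Postn, Foxi1, Hp, Kit and Pdlim3, and the largest falls Il24, Wnt7a, Prl2c3, Prl2c2 and Sema7a. Foxi1, a forkhead factor of ion-transporting epithelial cells, had 1143 reads in L MYC and 0 in L Her2, at least 329.9-fold higher against a floor of 3 reads in that library. Prl2c2 and Prl2c3, proliferin genes of near-identical sequence, had L ratios of -6.86 and -7.17. In bi, the largest rises were Krt15, Wfdc12, Chil1, Gabrp and Hp, and the largest falls Mmp10, Grik3, Il24, Areg and Wnt7a. Krt15, a basal keratin, was at 113 CPM in bi MYC and 0.504 CPM in bi Her2, a log2 ratio of 7.73, and did not pass over the populations (adjusted p = 0.0546).

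Of the 114 genes named by the rule and past the threshold, 32 kept their call in each of the 12 fits that left out 1 library or 1 population. Kit kept it in the 11 fits in which it could be tested and did not pass the filter on low counts without population L. The 32 hold Erbb2, the ligands Areg, Ereg and Hbegf, the ERK-linked Hmga2, Spry4, Il11 and Ccnd1, the cell cycle genes E2f8, Cdc6 and Cdkn1a, and Odc1, Ptgs2, Wnt7a, Csf3 and Il24 among those that fell. Among those that rose are Ly6a, Hp, Orm1, Oxtr, Mxd4, Bmf, Sesn3, Mgst1, Gstm1, Aldoc and Cxcl12.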

How the data were processed

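RNA was isolated from sorted Comma-1D cells with either of 2 kits (which library had which is not given) and made into stranded, ribosomal-RNA-depleted libraries, per the labels' protocols, although the molecule label reads polyA RNA. Salmon 0.9.1 and mm10 are named in the submitters' processing notes; the annotation release is not given in the sources used here. The deposited files hold estimated counts and TPM per gene, per the file headers. Estimated counts were rounded to whole numbers, TPM entered an alternative only. Versioned Ensembl IDs were matched to GENCODE symbols for 53544 of 54281 genes, 563 more without the version, and 174 stayed unnamed.

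Genes passing filterByExpr (minimum count 10, minimum total 15) were fitted with edgeR 4.0.16 (R 4.3.3; TMM, quasi-likelihood) on all 9 libraries with population as a block, leaving 4 residual degrees of freedom; adjusted p is Benjamini-Hochberg over all genes tested, threshold 0.05. A control library enters the spread but not the contrast. Within a population, log2 ratios were taken after adding a prior count of 2 to the TMM-scaled values. The population label pairs the samples. Deviations from the arm means correlated at 0.186 to 0.757 for libraries of the same population and at -0.722 to 0.391 for different ones. The ranges overlap: bi MYC correlated at 0.298 with bi Her2 and at 0.356 with L Her2. Deviations cancel within an arm of 3 libraries, which pulls values between populations down, so the ranges do not test the pairing. Counting intervals (95%, exact) and the floor of 3 reads cover counting error only. limma 3.58.1 and DESeq2 1.42.0 gave alternatives. The script was tested on simulated counts that held no difference between populations, so that test does not cover the population term.

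Named genes were Myc, Erbb2, Ly6a and Epcam, the 15 largest called rises and falls with 1 sign in all populations, 5 CPM in the higher arm and no predicted-gene, clone or pseudogene symbol, up to 3 called rises and falls per list (or the smallest p), and the 5 largest ratios each way per population at 10 CPM. Other list members, and all genes of the closing observations, were chosen after their values were seen. For those other list members no calls with a library left out are given, so their stability is not shown. The members, lists and rule were chosen with earlier results of these data known. No batch is given in the labels.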

Additional observations from a re-analysis of the deposited data

Results flagged for a closer look

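The median of 27 keratinocyte differentiation genes moved in opposite directions in 2 populations: the log2 ratio of MYC over Her2 had a median of 0.87 in bi and -2.172 in L. In bi 20 of the 27 ratios were positive and in L 23 were negative, while the median in B was 0. It was singled out because 1 MYC library against 1 Her2 library moved up in bi and down in L, and the difference between the populations was not tested. Krt16, a stress keratin of hyperproliferative epidermis, was at 11.1, 7.63 and 183 CPM in the B, L and bi MYC libraries, 9.41, 36.3 and 33.5 CPM in Her2 libraries and 60.0, 13.1 and 29.2 CPM in controls. Sprr1a, a cornified envelope precursor, was at 9.44, 0.749 and 40.3 CPM in MYC libraries, 0.307, 20.8 and 4.59 CPM in Her2 libraries and 13.4, 1.85 and 4.93 CPM in controls. Ivl, which encodes involucrin, was at 16, 2.00 and 23.5 CPM in MYC libraries, 5.64, 44.5 and 16.4 CPM in Her2 libraries and 22.5, 10.7 and 8.56 CPM in controls. All 3, chosen after their values were seen, were lowest of the MYC libraries in L, and none passed over the populations (adjusted p 0.942, 0.944 and 0.783). The kallikrein gene Klk10 (log2 fold change -3.58, adjusted p = 0.0115) and the connexin gene Gjb2 (-2.43, adjusted p = 0.0308) were the 2 members called, both lower. They were 7.41% of the 27, against 2.13% of all genes called lower. Klk10 was lost without L MYC (0.0556), and Gjb2 without B MYC, L Her2, bi MYC or bi Her2 (0.0753 to 0.152).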

How the results depend on the processing

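The 1089 calls, 581 higher and 508 lower, and the 163 of 895 list members called stayed within 1.5 times under RLE and upper-quartile scaling, a 1 CPM filter, limma-voom, the 6 oncogene libraries alone and no ribosomal or mitochondrial genes (963 to 1370 calls). Without a filter on low counts 2089 passed (960 higher, 1129 lower, 276 list members), and with DESeq2 1835 (975 higher, 860 lower). On log2(TPM + 1) 500 passed, 138 of them higher, with 80 list members, and on log2(TPM + 0.1) 264 were higher. Without the population block 6 passed, 4 higher and 2 lower, 2 of them list members. Leaving out 1 library gave 217 to 1499 calls, 103 to 766 higher, 114 to 812 lower and 48 to 190 list members. Without population B 2070 passed (1200 lower, 282 list members), without L 256 (139 higher, 117 lower, 58 list members) and without bi 432 (196 higher, 236 lower, 84 list members). Fits with fewer libraries have fewer residual degrees of freedom, and an arm left with 1 fewer library is assumed to vary like the others. With 50 more bases after the start, the shares of all promoters were 8.729% for CACGTG and 6.505% for TGANTCA. Of 2857 values of named genes past the threshold under the alternatives, 0 reversed. The medians of the EGF ligand, ERK, FOXO, G1/S, G2/M, acute phase, interferon and luminal progenitor lists kept their sign under RLE, upper-quartile and TPM scaling and without each population. Their calls held less well on log2(TPM + 1). There 0 interferon, 1 luminal progenitor, 4 acute phase and 3 FOXO genes were called higher, and 17 G1/S and 9 ERK genes lower. The EGF ligand and G2/M lists had 5 and 4 lower calls there, as in the count fit. Each population and arm has 1 library, and depth limits results with few reads in an arm, such as Csf2 with 2 reads in the MYC libraries, Hp with 2 in B Her2 and Gm46223 with 3 in the MYC libraries. A fit without 5 predicted loci described below, added after seeing the data, gave 1074 calls.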

Other observations

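Complement proteases were higher in MYC cells. C1s1, which encodes the C1s protease of the classical pathway, was at 557, 8.95 and 60.8 CPM in the B, L and bi MYC libraries, 104, 1.92 and 5.73 CPM in Her2 libraries and 319, 3.20 and 12.2 CPM in controls (log2 fold change 2.73, SE 0.30, adjusted p = 0.00397). C1ra, its partner protease C1r, was at 136, 7.75 and 23 CPM in MYC libraries, 33.5, 1.57 and 2.75 CPM in Her2 libraries and 80.9, 4.68 and 9.11 CPM in controls (2.46, SE 0.23, adjusted p = 0.00191). In each population the MYC library was highest and the Her2 library lowest. C1s2 and C1rl, close relatives of C1s1 and C1ra between which counts may be split, had 2.31 (adjusted p = 0.00984) and 2.06 (adjusted p = 0.0103). Both C1s1 and C1ra kept their calls in the 12 fits that left out a library or population, whereas C1s2 was lost without population B (0.0533) and C1rl without bi MYC (0.052).

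The transport genes Slc5a1 and Atp6v0a4, picked after their values were seen, were higher in MYC. In contrast, Slc9a2, a sodium-proton exchanger, fell 16.6-fold (adjusted p = 0.00886), a call lost without population L (0.0513). Slc5a1, the sodium-glucose cotransporter SGLT1, had 0 reads in the B libraries of both oncogenes, and was at 28.6 and 23.5 CPM in L and bi MYC, 2.73 and 0.366 CPM in L and bi Her2 and 11.1 and 3.74 CPM in L and bi controls (4.42, SE 0.77, adjusted p = 0.0153, lost without bi MYC or bi Her2 at 0.0649 to 0.0707). Atp6v0a4, a proton pump subunit of acid-secreting cells, was at 18.6 and 6.84 CPM in L and bi MYC and 1.16 and 0.664 CPM in L and bi Her2 (3.47, SE 0.78, adjusted p = 0.0388, lost without any L or bi oncogene library at 0.109 to 0.247).

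Among further falls, Spp1, which encodes osteopontin, was at 146, 229 and 238 CPM in MYC libraries, 1252, 2131 and 958 CPM in Her2 libraries and 572, 841 and 991 CPM in controls. It fell 7.06-fold (log2 fold change -2.82, SE 0.29, adjusted p = 0.00315) and was called in all 12 of those fits. Grem1, a secreted BMP antagonist, fell 7.86-fold (adjusted p = 0.00605) and was likewise called in all 12. Pdcd4, an inhibitor of the translation factor EIF4A, was at 100.1, 51.2 and 74.1 CPM in MYC libraries, 33.4, 7.17 and 5.29 CPM in Her2 libraries and 30.6, 17.3 and 11.2 CPM in controls, and rose 6.61-fold (adjusted p = 0.00764), called in all 12.

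A set of 5 predicted loci carried 1.15, 2.11 and 1.32% of all reads in the B, L and bi MYC libraries, against 0.0257, 0.0166 and 0.0606% in Her2 libraries and 0.0332, 0.0258 and 0.0445% in controls. The largest was Gm42427 on chromosome 5, at 7402, 10953 and 8302 CPM in MYC libraries, 146, 104 and 219 CPM in Her2 libraries and 155, 161 and 212 CPM in controls (log2 fold change 5.87, SE 0.34, adjusted p = 0.000137). Gm43305, Gm48274, Gm48275 and Gm42031 had log2 fold changes of 4.77, 7.57, 7.40 and 6.76 and were called in all 12 fits, as was Gm42427. Gm46223, a processed pseudogene, went the other way, with 3 reads in the 3 MYC libraries together and 3121 in the 3 Her2 libraries. Its call was lost without L Her2, bi MYC, bi Her2 or population bi (adjusted p 0.0533 to 0.119). Gm46223 held 7.32e-05, 0.000361 and 0.00346% of reads in the B, L and bi Her2 libraries. Controls held 0.00127, 3.67e-05 and 0.00215%, above Her2 in B and below it in L and bi. The loci are not independent: of the 31-base strings of Gm46223, 90.1% are also in Gm42427, and of those of Gm48275 and Gm42031, 66.2% and 60.9% are in Gm43305, so estimated counts can be split between them. The origin of these reads, whether the loci themselves, the transduced construct or other RNA of similar sequence, was not tested.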
